A study of Bos taurus with 18 samples.

Results

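The 7 interferon-induced effector genes GBP1, PARP14, MX1, MX2, ISG15, RSAD2 and APOBEC3Z1 were followed in milk cells of 18 cows, of which 6 were healthy, 6 had mastitis and 6 had endometritis. They were chosen by name: a probe set, the group of short probes that reads 1 transcript on an Affymetrix array, belonged to the set when its symbol in the platform annotation was exactly 1 of these names. Each gene had 1 such probe set, so that 7 of the 24016 probe sets tested and 7 of the 9155 genes named on the array were members. The names were chosen with earlier results of these data known. All 7 passed into the tests, because no filter on low values was applied. In mastitis the probe sets of all 7 genes were higher than in healthy cows, by 1.89 (MX2) to 4.91 (GBP1) on the log2 scale, and none of the 7 passed the test in endometritis against healthy. Of all probe sets, 10.2% were called higher in mastitis than in healthy cows. In endometritis against healthy 0% were called higher and 0% lower.

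Interferons are secreted proteins that bind receptors on the cell surface and act through the receptor-bound Janus kinases. Type I interferons act mainly through a complex that holds STAT2 and IRF9 and switches on many genes, and interferon gamma switches on a partly shared set. The members are such target genes and act inside the cell rather than as signals. GBP1 is a large GTPase of the guanylate-binding proteins, which assemble on the vacuoles and surfaces of invading microbes. MX1 and MX2 are dynamin-like GTPases that block viruses. PARP14 transfers single ADP-ribose units to proteins. ISG15 is a ubiquitin-like protein that is joined to other proteins by its own enzyme cascade and is also secreted. RSAD2, or viperin, makes a nucleotide analogue that ends viral RNA chains early. APOBEC3Z1 is a cytidine deaminase that acts on single-stranded DNA. In the udder these genes can be expressed by the milk's immune cells and by epithelial cells.

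Milk somatic cells are a mixture of immune cells (neutrophils, macrophages and lymphocytes) and epithelial cells shed into the milk. Mastitis is an inflammation of the udder, and endometritis is one of the lining of the uterus, outside the udder. The healthy cows showed no clinical sign of disease, had a milk cell count under 100000 per ml and were mostly sampled 10 to 100 days after calving. Cows with mastitis or endometritis were sampled 10 to 220 days after calving, and lactations 1 to 8 are given for healthy and for diseased cows. An age of 2 to 4 years is given for the healthy cows, which cannot hold for a cow in lactation 8, and no age is given for the diseased cows. Neither the pathogen nor the severity or treatment of a disease is given. No breed or herd is given for a cow, so stage of lactation, age and herd may differ between groups, and their part in the results was not tested. Each cow was 1 array and 1 biological replicate, and the 6 arrays per group limit the precision.

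The values are deposited normalised intensities on a scale read here as log2, on which 1 unit is a 2-fold change. Over the whole table they ran from 2.43 to 14.2 with a median of 2.55, and a value at or under that median is called background here. Levels are compared between groups for the same probe set only, never between genes. A bulk measurement cannot tell more cells of a type from more RNA per cell. The defining markers of milk cells were seen: the mean of 12 mammary secretory genes was 10.9 to 12.1 in healthy cows and that of 11 macrophage genes 4.09 to 7.28. In mastitis the secretory mean was 5.61 to 8.91, and 10 of 12 secretory genes fell. Differences between groups are from 1 limma model over all 18 arrays, with two-sided p-values adjusted by the Benjamini-Hochberg method over 24016 probe sets and a call at an adjusted p under 0.05.

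GBP1 separated mastitis from healthy cows completely. Its log2 intensity had a lowest, median and highest value of 3.25, 4.82 and 6.26 in healthy cows, of 7.50, 9.95 and 10.68 in mastitis, and of 3.82, 5.25 and 7.88 in endometritis. Every mastitis array was above every healthy array, and 5 of 6 were above every endometritis array. The mean was 4.72 ± 1.15 (SD, n = 6) in healthy cows, 9.63 ± 1.18 in mastitis and 5.47 ± 1.37 in endometritis. Mastitis was higher than healthy by 4.91 ± 0.70 (SE; 95% confidence interval 3.42 to 6.39), a 30.0-fold difference with a limma adjusted p of 0.000234. All 7 members were called higher in this comparison, in which 10.2% of all probe sets were called higher and 9.35% lower.

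The genes of both Mx proteins were higher in mastitis as well. MX1 ran from 2.45 through a median of 4.11 to 6.44 in healthy cows, from 6.28 through 7.34 to 8.14 in mastitis, and from 2.45 through 4.04 to 6.46 in endometritis. Its groups overlapped, as 5 of 6 mastitis arrays were above all healthy arrays and the lowest mastitis array was below the highest healthy one. The fitted difference between mastitis and healthy was 3.03 ± 0.73 (SE; 95% interval 1.47 to 4.58), 8.15-fold, with a limma adjusted p of 0.00797. MX2 sat at the floor of the scale in most cows without mastitis: its lowest, median and highest values were 2.50, 2.58 and 2.84 in healthy cows and 2.49, 2.57 and 3.54 in endometritis. In both groups 5 of 6 arrays lay within 0.1 of the median of all values. In mastitis MX2 ran from 3.36 through 4.33 to 6.02, and no mastitis array overlapped a healthy one. It was higher in mastitis than in healthy cows by 1.89 ± 0.37 (SE; 95% interval 1.10 to 2.69), 3.72-fold, with a limma adjusted p of 0.00216. Near the floor a fold change understates a difference.

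PARP14 varied little within groups, with an SD of 0.74 in healthy cows, 0.69 in mastitis and 0.65 in endometritis. Healthy cows ran from 3.59 through a median of 4.42 to 5.66, mastitis from 6.99 through 7.89 to 8.70, and endometritis from 4.35 through 5.08 to 6.14. No mastitis array overlapped an array of either other group. Mastitis exceeded healthy by 3.21 ± 0.39 (SE; 95% interval 2.38 to 4.05), 9.26-fold, with a limma adjusted p of 7.93e-05, the lowest of the 7.

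ISG15 was above background in all 18 cows. It ran from 7.52 through a median of 8.60 to 10.58 in healthy cows, from 10.68 through 12.55 to 13.28 in mastitis, and from 6.26 through 7.38 to 10.15 in endometritis. The lowest mastitis array lay just above the highest healthy array, so the groups met without overlapping. Mastitis was higher than healthy by 3.37 ± 0.69 (SE; 95% interval 1.90 to 4.84), 10.3-fold, with a limma adjusted p of 0.00281.

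The enzymes RSAD2 and APOBEC3Z1 rose in mastitis as well. RSAD2 ran from 3.80 through a median of 4.88 to 7.17 in healthy cows, from 6.58 through 9.10 to 11.73 in mastitis, and from 3.57 through 5.13 to 7.61 in endometritis. Its mastitis group was the widest of the 7 members' (SD 1.86), and 5 of 6 mastitis arrays were above all healthy arrays. The difference between mastitis and healthy was 3.89 ± 0.88 (SE; 95% interval 2.01 to 5.76), 14.8-fold, with a limma adjusted p of 0.00553. APOBEC3Z1 ran from 4.01 through a median of 5.10 to 7.05 in healthy cows, from 8.44 through 9.71 to 10.61 in mastitis, and from 2.74 through 4.07 to 8.46 in endometritis. Mastitis and healthy did not overlap, whereas the endometritis group was widely spread (SD 2.04). Mastitis exceeded healthy by 4.28 ± 0.80 (SE; 95% interval 2.58 to 5.98), 19.5-fold, with a limma adjusted p of 0.00149.

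**Figure D1:**
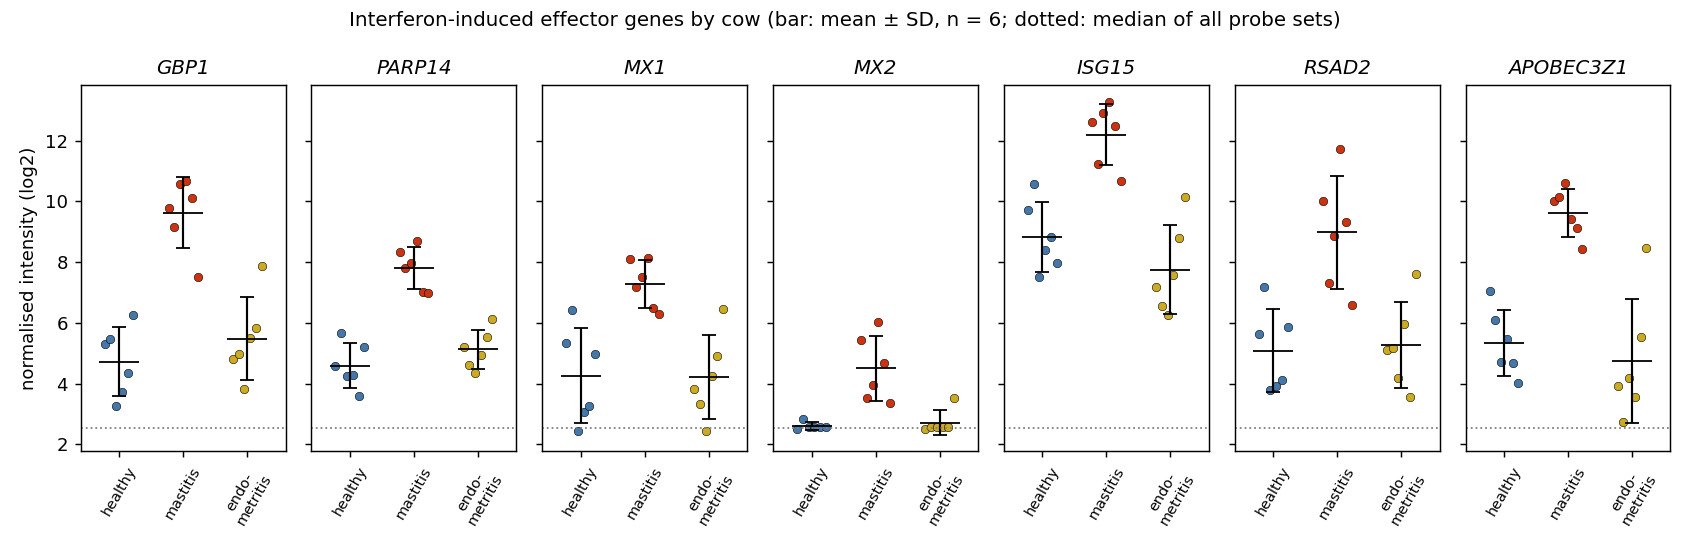
Log2 intensity of each of the 7 genes (panels) in each of the 18 cows (points), by group, with the group mean and SD (n = 6) and the median of all probe sets as a dotted line. Mastitis lies highest in each panel, and MX2 lies at the dotted line in most healthy and endometritis cows.

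The median difference of the 7 genes between mastitis and healthy was 3.37, against a median of 0 over all 24016 probe sets. The 7 were chosen with earlier results of these data known, so values over all probe sets are background here and no test. The arrays of mastitis and healthy cows did not overlap for 5 of the 7 (GBP1, PARP14, MX2, ISG15 and APOBEC3Z1), while every mastitis array was above every healthy one for 6.22% of all probe sets. Scaling the arrays to their hybridisation controls changed the make-up of the calls over all probe sets from 2443 higher and 2246 lower to 1996 higher and 900 lower, and all 7 genes were still called higher. The difference between the 3′ and 5′ control probe sets for GAPDH, a measure of RNA integrity, was 0.88 ± 0.40 (SD, n = 6) in healthy cows, 0.39 ± 0.23 in mastitis and 0.58 ± 0.25 in endometritis. With it as a covariate, 3 of the 7 (GBP1, PARP14 and APOBEC3Z1) were called higher, and MX1 (1.63, adjusted p = 0.218), MX2 (1.45, adjusted p = 0.0656), ISG15 (2.57, adjusted p = 0.0789) and RSAD2 (2.35, adjusted p = 0.158) did not pass. Over all probe sets this covariate changed the calls from 2443 higher and 2246 lower to 856 higher and 572 lower. With limma's array weights MX1 alone of the 7 did not pass (2.02, adjusted p = 0.0662).

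Markers of cell types moved in the same comparison. Of 12 neutrophil genes measured from a list of 19, 8 were higher in mastitis than in healthy cows and 0 lower, with a median difference of 3.41, and CXCR1, a chemokine receptor of neutrophils, was higher by 5.51. The mean of the 12 was 4.15 to 5.58 in healthy cows, 7.01 to 8.16 in mastitis and 3.72 to 5.82 in endometritis. The 4 genes of the list that did not pass by limma were MMP9 (0.50, adjusted p = 0.521), ITGAM (0.52, adjusted p = 0.106), ELANE and MPO. ELANE was at background on 6 healthy, 5 mastitis and 6 endometritis arrays and MPO on 4, 6 and 4. At 1 probe set per gene, 0 of 11 macrophage genes and 0 of 13 T cell genes were called by limma, and 1 and 0 had an unadjusted p under 0.05. Of further probe sets, 1 of 2 for CD14 was called higher and 1 of 3 for MSR1 lower. In the same reading 3 of 8 genes of natural killer and cytotoxic cells were higher and 5 not called. The 3 were GNLY (by 3.61), CD244 (by 2.46) and NCR1 (by 0.17, at background on 6 healthy and 3 mastitis arrays). The macrophage mean was 5.41 to 7.82 in mastitis, which overlapped the healthy range. Of 9 epithelial structure genes 7 fell, and their mean went from 4.14 to 5.87 in healthy cows to 2.56 to 2.93 in mastitis. The part of these markers in the members' differences was not tested, and the GAPDH measure entered only as the covariate above.

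No member passed the test between endometritis and healthy cows. Over all probe sets 0% were called higher and 0% lower by limma in this comparison, while 1047 had an unadjusted p under 0.05, none of them a member. The differences of endometritis from healthy were 0.75 ± 0.70 (SE) for GBP1, 0.54 ± 0.39 for PARP14, -0.05 ± 0.73 for MX1 and 0.11 ± 0.37 for MX2. For ISG15, RSAD2 and APOBEC3Z1 they were -1.08 ± 0.69, 0.17 ± 0.88 and -0.60 ± 0.80. Thus 4 of 7 were above 0 and 3 below, with a median of 0.11. The 95% intervals were wide: -0.74 to 2.23 for GBP1, -0.29 to 1.38 for PARP14, -1.60 to 1.51 for MX1 and -0.68 to 0.91 for MX2. They were -2.55 to 0.40 for ISG15, -1.71 to 2.05 for RSAD2 and -2.30 to 1.10 for APOBEC3Z1. A difference of more than 1 log2 unit in at least 1 direction lay inside the interval of each member but MX2, whose values are compressed at the floor. The limma adjusted p was 0.925 to 1. The sign of differences near 0 depended on single cows. Without endometritis cow 6, MX2 went from 0.11 to -0.05 and RSAD2 from 0.17 to -0.29, while ISG15 went from -1.08 to -1.56 and APOBEC3Z1 from -0.60 to -1.34. RSAD2 was also below 0 without healthy cow 3, 4 or 5 (-0.08, -0.06 and -0.02), and MX1 was above 0, by 0.03 to 0.39, without healthy cow 1, 2 or 6 or endometritis cow 1, 2 or 3.

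Set against endometritis, mastitis was higher for all 7 members, in a comparison in which 7.99% of all probe sets were called higher and 6.55% lower. This comparison and the one with healthy cows use the same 6 mastitis arrays and are not independent. The differences were 4.16 ± 0.70 (SE) for GBP1, 3.07 ± 0.73 for MX1 and 1.78 ± 0.37 for MX2, with limma adjusted p of 0.00108, 0.00985 and 0.00479. PARP14 differed by 2.67 ± 0.39 and ISG15 by 4.45 ± 0.69, with limma adjusted p of 0.000391 and 0.000611. RSAD2 differed by 3.71 ± 0.88 and APOBEC3Z1 by 4.88 ± 0.80, with limma adjusted p of 0.00996 and 0.000897. As folds these ran from 3.44 for MX2 to 29.5 for APOBEC3Z1. Every mastitis array was above every endometritis array for PARP14 and ISG15, 2 of the 7, against 4.43% of all probe sets. For RSAD2 it was 4 of 6 mastitis arrays, and for the other 4 members 5 of 6. With array weights MX1 (2.17, adjusted p = 0.0619) and RSAD2 (2.61, adjusted p = 0.0635) did not pass. In the order of group means, mastitis was therefore first for every member. Healthy and endometritis, the neighbours below it, were not told apart by limma for any, with the wide intervals given above.

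**Figure D2:**
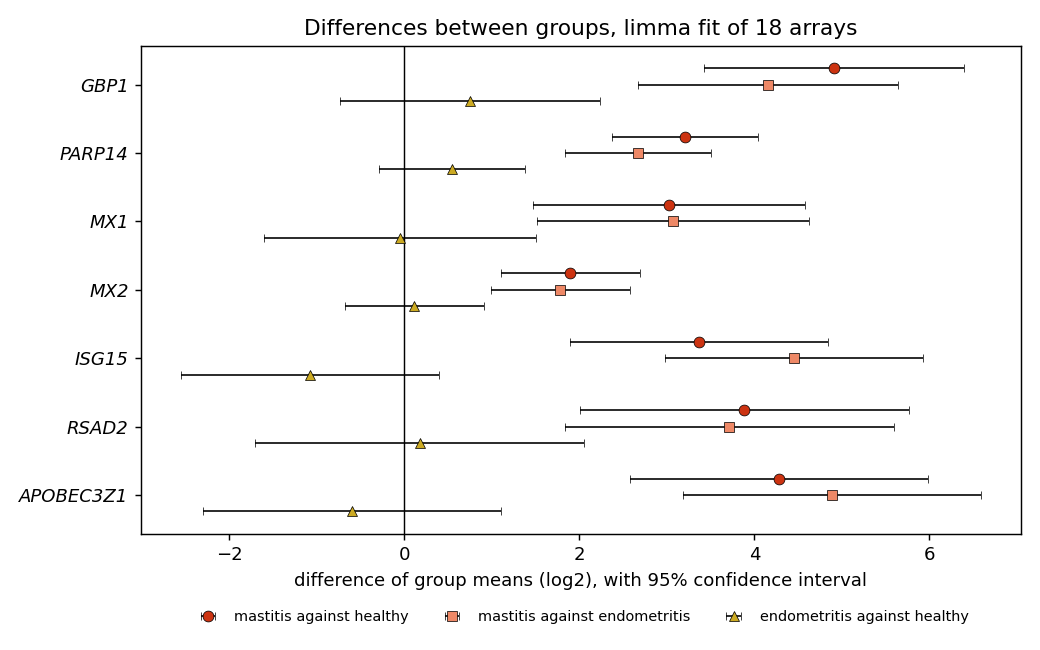
Difference of group means (log2, horizontal axis) with its 95% confidence interval for each of the 7 genes (rows) in the 3 comparisons of the limma model. The intervals of both comparisons of mastitis lie above 0 for all 7 genes, and those of endometritis against healthy include 0 for all 7.

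Within a group the 7 genes tended to be high or low in the same cows. Mastitis cow 4 had the highest value of its group for 6 of 7 members, among them RSAD2 at 11.73, MX2 at 6.02 and ISG15 at 13.28, and APOBEC3Z1 alone was highest in cow 3, at 10.61. Mastitis cow 6 had the lowest value for all 7, with GBP1 at 7.50, RSAD2 at 6.58 and MX2 at 3.36. The mean of the 7 was 9.71 in cow 4 and 7.12 in cow 6. Without cow 6, GBP1 differed from healthy by 5.33 and RSAD2 by 4.36, and each of the 7 was called in each of the 18 fits that left out 1 cow.

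Endometritis cow 6 had the highest value of its group for all 7 members. Its GBP1 was 7.88, its ISG15 10.15, its RSAD2 7.61 and its APOBEC3Z1 8.46, and the next highest APOBEC3Z1 in the group was 5.55. For 6 of 7 members this cow was above all healthy cows, and for 5 of 7 it was at or above the lowest mastitis cow. Its neutrophil marker mean was 5.82, the highest of its group and below the lowest mastitis value of 7.01. Its GAPDH difference (0.30) and its mean hybridisation control (7.80) were the lowest of its group. Among healthy cows, cow 2 was highest for 5 of 7 members, with ISG15 at 10.58, RSAD2 at 7.17 and MX1 at 6.44. For MX1 and RSAD2 cow 2 reached into the mastitis range, and its neutrophil marker mean was 4.67. At the other end, healthy cow 3 and endometritis cow 3 were each the lowest of their group for 4 of 7 members, and MX1 was at background in both (2.45). Their mean hybridisation controls, 9.43 and 9.02, were the highest of their groups, as was the GAPDH difference of endometritis cow 3 (1.05). Mastitis cow 4, highest for 6 of 7 members, also had the highest mean hybridisation control of its group (8.83). In mastitis cow 6, lowest for all 7, that mean was 8.22. The part of these array measures in the members' values was not tested.

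**Figure D3:**
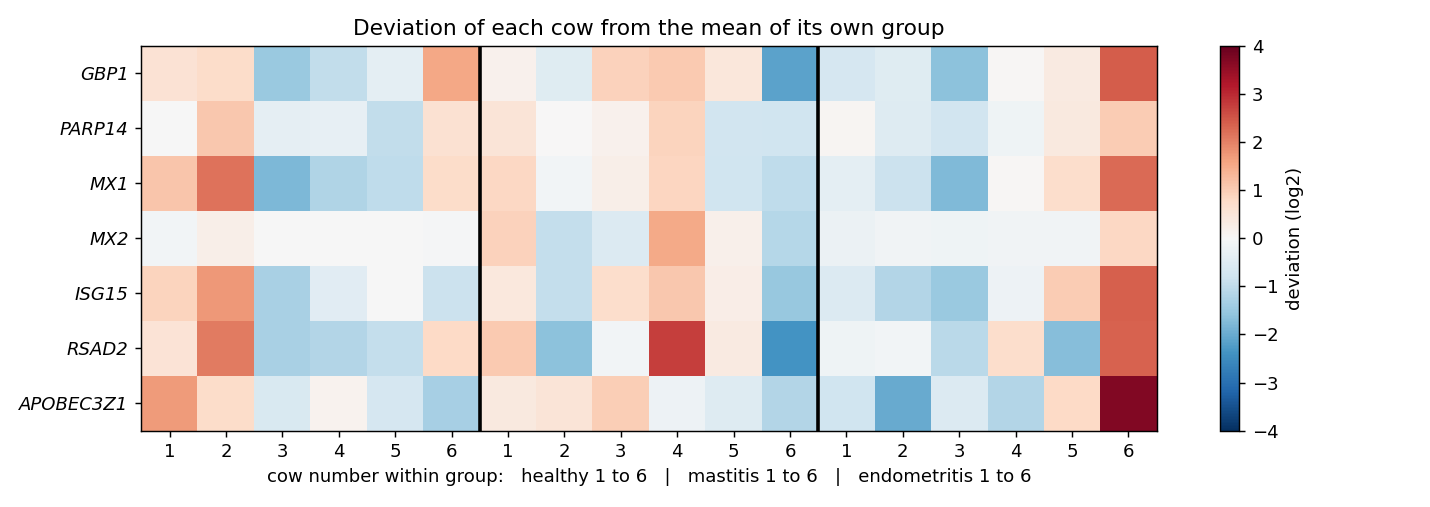
Deviation of each cow (columns, by group) from the mean of its own group on the log2 scale for each of the 7 genes (rows), with colour from blue (below) to red (above). Mastitis cow 4, endometritis cow 6 and healthy cow 2 are red in most rows, and mastitis cow 6, healthy cow 3 and endometritis cow 3 are blue in most.

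Over the 18 arrays, deviations from the group means correlated positively for all 21 pairs of members, with Pearson's r from 0.28 (MX2 with APOBEC3Z1) to 0.88 (PARP14 with MX1) and a median of 0.70. Spearman's rho ran from 0.18 to 0.85. By a permutation test within groups (100000 permutations, two-sided, Benjamini-Hochberg adjusted over the 21 pairs), 15 of 21 pairs passed 0.05 by both measures. MX1 with ISG15 had r = 0.84 (permutation p = 1e-04, adjusted 0.000525) and rho = 0.80 (permutation p = 0.00013, adjusted 0.00091). RSAD2 with APOBEC3Z1 had r = 0.35 (permutation p = 0.15, adjusted 0.15) and rho = 0.18 (permutation p = 0.484, adjusted 0.484) and did not pass. Leaving out the 2 cows farthest from the median of the first gene of a pair, the 21 values of r ran from 0.13 to 0.81 with a median of 0.53. Leaving out extreme cows narrows the range of the values, which can itself lower r. How far the relation rests on single cows was therefore not settled. All values of a cow share its array and its mix of cells.

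The members were also set against the means of 8 marker lists in the same way, which gave 56 relations adjusted together. Pearson's r of the deviations from the group means ran from 0.40 for MX2 to 0.76 for APOBEC3Z1 with the neutrophil list (median 0.58), and from 0.02 for MX2 to 0.68 for GBP1 with the macrophage list (median 0.43). With the T cell list r was -0.64 to -0.03, and with the epithelial structure list -0.58 to -0.08. By Pearson's r 0 of the 56 passed the permutation test within groups after adjustment (14 had an unadjusted p under 0.05), and by Spearman's rho 1 did, MX1 with neutrophil markers. There rho was 0.72 (permutation p = 0.00042, adjusted 0.0235) and r was 0.74 (permutation p = 0.00109, adjusted 0.061). GBP1 with macrophage markers had r = 0.68 (permutation p = 0.00468, adjusted 0.0898) and rho = 0.63 (permutation p = 0.0101, adjusted 0.189). Without endometritis cow 6 and healthy cow 1, the cows farthest from the median of the neutrophil list, r with that list ran from 0.33 to 0.63. It was 0.63 for MX1, 0.38 for APOBEC3Z1 and, unchanged, 0.58 for PARP14. Without endometritis cow 5 and healthy cow 1, the cows farthest for the macrophage list, r of GBP1 with that list was 0.74. A pooled r over the groups is not given, since mastitis forms a cluster of its own.

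**Figure D4:**
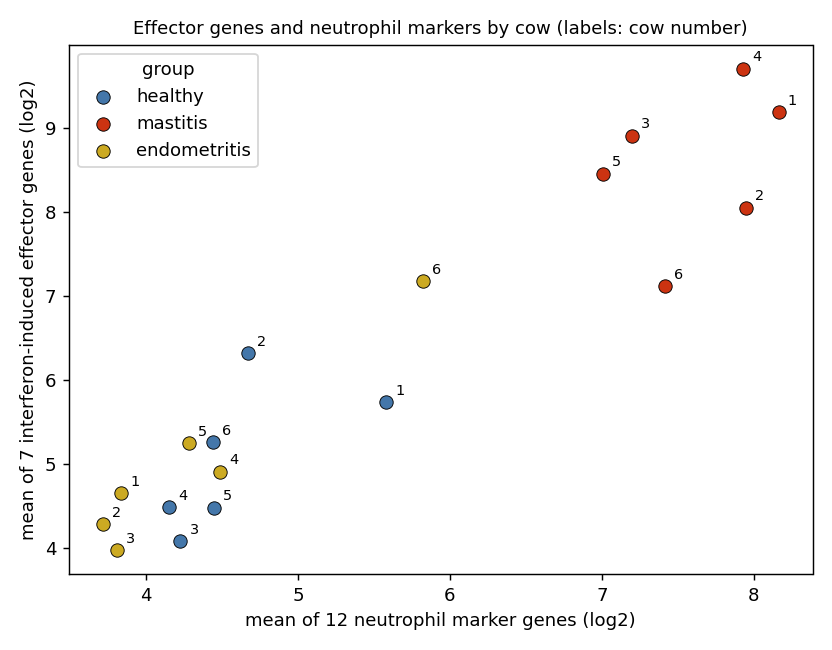
Mean log2 intensity of the 7 effector genes (vertical axis) against the mean of 12 neutrophil marker genes (horizontal axis) for each cow, coloured by group and numbered within it. Mastitis cows lie apart at neutrophil means of 7.01 to 8.16 and effector means of 7.12 to 9.71, and endometritis cow 6 lies between the clusters on the neutrophil axis, at 5.82, with an effector mean of 7.18 just inside the mastitis range.

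Genes whose deviations were most like a member's were taken from 6549 genes above background, by Pearson's r over the 18 arrays and with no test. For PARP14 these were STAT2 (r = 0.88), MX1 (0.88) and UBA7, the enzyme that activates ISG15 (0.86). For ISG15 they were IFIT5 (r = 0.89), XAF1 (0.88) and TRIM25 (0.86), and for RSAD2 IFI44 (r = 0.87), UBA7 (0.86) and PNPT1 (0.84). MX1 was most like DRAM1 (r = 0.93), PARP9 (0.92) and ACSL6 (0.91), and GBP1 most like ATAD1 (r = 0.91), PLAC8B (0.90) and TRIM34 (0.87). For MX2, whose values near the floor hold little variation outside mastitis, they were TRIM21 (r = 0.91, rho = 0.69), ATXN3 (0.89) and RUVBL2 (0.87). APOBEC3Z1 had SDS (r = 0.84, rho = 0.71), CASP4 (r = 0.84, rho = 0.74) and the neutrophil receptor CXCR1 (r = 0.81, rho = 0.56). In 10 of these 21 places stood a member or a gene of the pathway lists, which made up 1.3% of the genes compared.

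The rest of the interferon pathway was read from 12 lists with 87 distinct genes measured, a gene being read by 1 probe set, the brightest on average across the 18 arrays. The lists too were chosen with earlier results of these data known. Between mastitis and healthy 49 of the 87 were higher and 3 lower by the limma adjusted p, with a median of 1.28. Of all 9155 genes read in this way 11.3% were called higher and 15.8% lower, with a median of -0.01. In endometritis against healthy 0 of the 87 passed by limma (2 had an unadjusted p under 0.05), with a median of 0.05. Mastitis against endometritis had 44 higher and 2 lower, with a median of 1.18. Of all 9155 genes, 837 were called higher and 994 lower there, with a median of -0.01.

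Of the interferons themselves, the ligands of the pathway, 4 were measured from 23 listed and 0 passed between mastitis and healthy by limma, and none of the 4 passed before adjustment either. The type I interferon gene IFNB1 was at background on 5 of 6 healthy and 5 of 6 mastitis arrays. IFNG, which codes for interferon gamma, had a difference of 0.45 ± 0.49 (SE; limma adjusted p = 0.585). The type I genes IFNT2 and IFNAC were at background on all 12 arrays. The remaining listed ligands were not analysed here under those names.

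Of 5 receptor and kinase genes 4 were higher in mastitis than in healthy cows. IFNAR2, a chain of the type I receptor, rose by 3.45 and IL10RB, a chain shared by the receptors of type III interferons and interleukin 10, by 3.12. IFNGR2, of the gamma receptor, rose by 1.90 at the probe set read here, 1 of its 2 being called. IFNAR1 was at background on 6 of 6 healthy arrays and its mastitis mean was 3.08, at least 1.44-fold higher. JAK1, the shared kinase, differed by 0.00 (adjusted p = 1). Among 7 transcription factors 3 rose: IRF9 by 3.64, STAT2 by 2.50 and IRF7 by 2.83 (2 of 3 probe sets called). IRF9 and STAT2 are partners in the type I complex. IRF3 (0.42, adjusted p = 0.126) and IRF5 (1.62, adjusted p = 0.121, with its other 2 of 3 probe sets called) did not pass, nor did IRF2 and IRF8. IRF1 and IFNGR1 were not analysed here under those names. Of 7 nucleic acid sensors and adaptors 3 rose, MYD88 by 2.51, DHX58 by 2.16 and IFI16 by 1.78.

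Of 7 genes that attach or remove ISG15, 4 rose and 3 did not pass. UBA7, the activating enzyme, rose by 3.44, UBE2L6, the conjugating enzyme, by 3.10, and TRIM25, a ligase, by 2.62. USP18, the protease that removes ISG15 and also restrains the type I receptor, rose by 2.39, with 3 of its 4 probe sets called. The ligases HERC5 and HERC6 did not pass: HERC5 was at background on 6 healthy and 5 mastitis arrays, and HERC6 differed by 0.19 (adjusted p = 0.122). ARIH1 differed by 0.06.

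Among 23 other interferon-induced effectors 13 were higher in mastitis, 0 lower and 10 not called. SAMD9, a restriction factor of poxviruses, rose by 4.43, the membrane protein IFITM1 by 3.76, the apoptosis factor XAF1 by 3.18 and the RNA-activated kinase EIF2AK2 by 2.86 (1 of 2 probe sets called). IFIT2, which binds RNA, rose by 2.40. Members of the same response that did not pass included IFI44 (1.08, adjusted p = 0.269), IFI6 (1.21, adjusted p = 0.235) and OAS1X (0.28, adjusted p = 0.631, at background on 5 healthy and 4 mastitis arrays). IFIT1, IFIT3, OAS2, BST2 and CMPK2 were not analysed here under those names.

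Genes known as targets of interferon gamma gave 8 higher, 1 lower and 1 not called of 10. ICAM1, an adhesion molecule, rose by 3.68, the peptide transporter TAP1 by 3.29, the chemokine CXCL10 by 2.95 and the tryptophan-degrading enzyme IDO1 by 2.30. The related chemokine CXCL11 fell by 1.72 (adjusted p = 0.0194). Of 7 brakes on the signal 6 rose, among them SOCS3 by 2.33 (1 of 2 probe sets called, and at background on 5 of 6 healthy arrays, which compresses the difference) and USP18, while CISH differed by -0.49 and did not pass.

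Relatives of the members were listed as families. The guanylate-binding proteins GBP4 and GBP5 both rose, by 2.70 and 2.98, with all 4 probe sets of GBP5 called. Of 8 further PARP family genes and DTX3L, 6 rose, 1 fell and 1 was not called. PARP12 rose by 3.27 (2 of 4 probe sets called), DTX3L by 3.10 and its partner PARP9 by 2.75, whereas PARP1, the DNA repair enzyme, fell by 1.83 (adjusted p = 0.004). APOBEC3Z2 differed by 0.86 (adjusted p = 0.161), with 2 of 6 arrays at background in each of healthy and mastitis, and APOBEC2 was at background. Of 6 dynamin-like GTPases outside the Mx family 1 rose, DNM2 by 0.99 (adjusted p = 0.018), 1 fell, DNM1L by 0.60, and 4 did not pass. Whether probes of these families cross-hybridise between related genes was not tested.

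**Figure D5:**
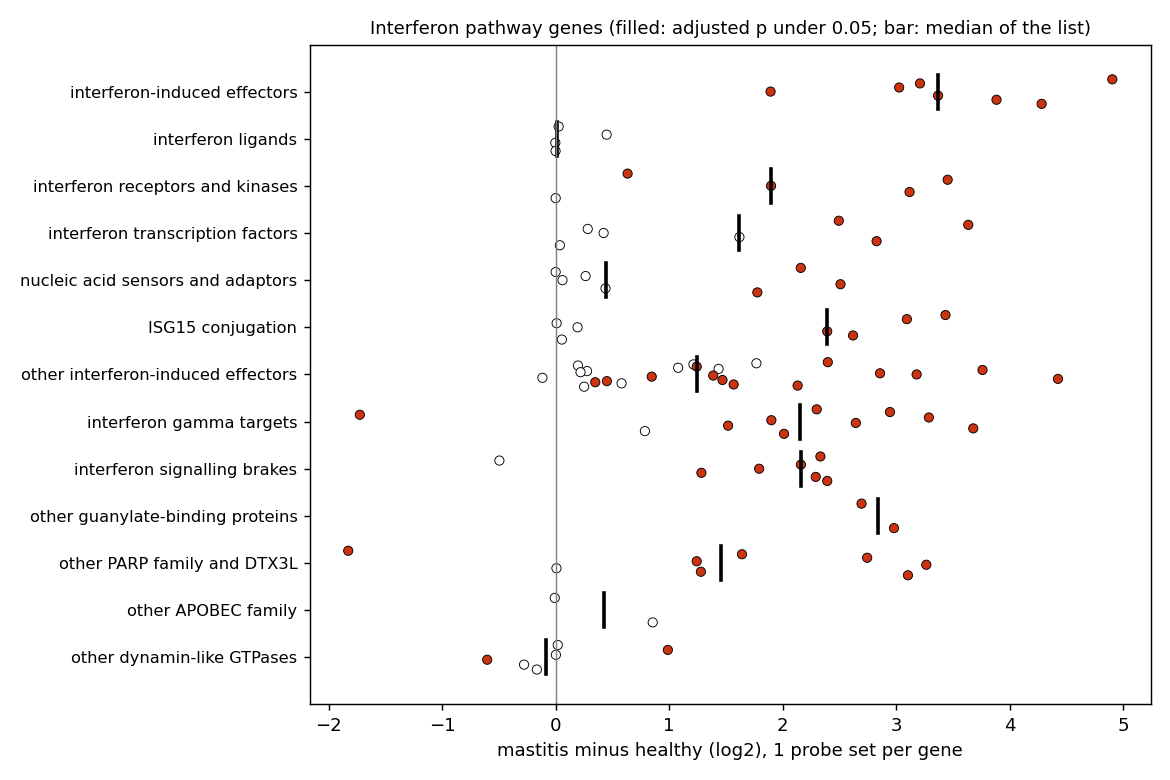
Difference between mastitis and healthy (log2, horizontal axis) for each measured gene of the 7 members and of the 12 pathway lists (rows), filled where the limma adjusted p is under 0.05, with the median of each list as a bar. The members lie at 1.89 to 4.91. Of the 4 ligands measured, IFNG lies at 0.45 and the others, at background on most arrays, lie near 0.

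These pathway counts moved with the GAPDH covariate, under which 20 of the 52 called genes of the lists no longer passed, among them EIF2AK2, IFIT2, CXCL10, CXCL11, IDO1, GBP5, PARP1 and DNM2. Calls over all probe sets went from 2443 higher and 2246 lower to 856 higher and 572 lower with the same covariate. With array weights GBP5 did not pass, and DNM1L did not pass with hybridisation-control scaling. Leaving out 1 cow at a time, EPSTI1 was lost in 13 of 18 fits, RTP4 in 8, IFI16 in 7 and PML in 3, and no other listed gene lost its call.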

How the data were processed

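RNA from the milk cells of 18 cows (6 per group, from farms and clinics) was measured on Affymetrix bovine arrays. Per the labels' protocols, RNA with an integrity number above 6 was DNase-treated and 100 ng were labelled from the poly-A tail with the 3′ IVT Express kit. RMA, GCRMA and limma appear in the submitters' processing notes, without versions or order. The log2 values were used as the authors deposited them. Their log base is not given in the sources used here, so folds rest on reading it as 2. Of 24128 probe sets 112 controls were left out, 13292 had 1 symbol, 86 several and 10638 none, and 0 columns belonged to no sample. The Entrez identifiers of all 7 members matched those of a reference annotation (ARS-UCD2.0), used for names and neighbours only.

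Tests used limma 3.58.1 in R 4.3.3 (lmFit, eBayes, a term per group) and the procedure was tested on simulated data. All member probe sets are named whatever their result, as are the signal, conjugation and family genes of a list written with the tests and the 3 most alike genes per member. SAMD9, IFITM1, XAF1, ICAM1, TAP1, CXCL10, IDO1, CXCL11, SOCS3, CISH, PARP1, the sensors and other listed genes outside it were named after their values were seen. Members and lists were chosen with earlier results of these data known. The alternatives were a filter on dim probe sets, 2 groups per fit, median and hybridisation-control scaling, a trended robust variance, array weights, the GAPDH covariate, a block on the title number, a floor, 1 probe set per gene, and leaving out each cow. Applying them to the pathway lists, and the permutation tests of relations between genes and with marker lists, were chosen after seeing the data.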

Additional observations from a re-analysis of the deposited data

Results flagged for a closer look

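MX2 gave the values set apart from the rest of a group. In 21 groups of 6 (7 genes in 3 groups), the gap of the highest or lowest cow to its neighbour was divided by the range and set against Dixon's 95% critical value, which chance passes in about 1 in 20 groups. Healthy cow 2 had an MX2 value of 2.84, with a ratio of 0.776, where the other 5 cows lay between 2.50 and 2.58. Endometritis cow 6 had an MX2 value of 3.54, with a ratio of 0.921, where the others lay between 2.49 and 2.58. The others of both groups sat at the floor of the scale, where the range is compressed. Healthy cow 2 was the highest of its group for 5 of the 7 genes and endometritis cow 6 for all 7.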

How the results depend on the processing

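Of the 196 values of the members between mastitis and healthy (7 genes under 28 alternatives), 191 kept their direction and call. The other 5 kept their direction and lost the call, 4 with the GAPDH covariate, which left 3 members higher, and 1 with array weights. Between mastitis and endometritis 194 of 196 kept their call, and between endometritis and healthy none gained one (lowest adjusted p 0.738), while 15 uncalled values changed sign, 7 of them for MX1. Over all probe sets, mastitis against healthy gave 856 higher and 572 lower with the GAPDH covariate, 900 lower with hybridisation-control scaling and 1128 higher with 1 probe set per gene, where fewer features are tested. Mastitis against endometritis gave 1277 higher and 704 lower with hybridisation-control scaling and 934 higher with 1 probe set per gene. Endometritis against healthy gave 1 lower under the dim filter, median centring, hybridisation-control scaling, the trended variance, array weights and 1 probe set per gene, and 0 to 1 when leaving out a cow (1 without healthy cow 6). Hybridisation-control scaling moved the median of all probe sets by 0.26 for mastitis and 0.16 for endometritis against healthy. The cause of these changes was not tested. No paired analysis was possible because the labels give the cows of different groups no shared number. Signal near the floor limits MX2 most.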

Other observations

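In the order of protein-coding genes of the reference table, several members have relatives as neighbours. MX1 and MX2 lie side by side. PARP14 lies next to DTX3L with PARP9 beyond it, and these rose by 3.10 and 2.75 between healthy and mastitis, beside 3.21 for PARP14. GBP1 lies next to GBP5, which rose by 2.98. APOBEC3Z1 lies next to APOBEC3Z2, whose difference of 0.86 did not pass (limma adjusted p = 0.161), beside 4.28 for APOBEC3Z1. RSAD2 lies next to CMPK2, which was not analysed here. ISG15 lies between AGRN and HES4.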
